A study of Mus musculus with 8 samples.

Results

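The genes described here are 10 genes of the major histocompatibility complex (MHC) and of antigen processing, H2-K1, H2-D1, B2m, Tap1, H2-Aa, H2-Ab1, H2-Eb1, H2-DMa, Cd74 and Ciita, taken by name from the 27179 genes of a bulk RNA-seq count table. The table held 8 libraries of cells from the lungs of Eml4-Alk mice, 4 of the QZ1-hi population (QZ+ in the labels) and 4 of the QZ1-lo population (QZ-). All mice were female C57BL/6J (C57BL/6 in the labels), 18 to 22 weeks old and 11 to 12 weeks past tumor induction, for which an adenovirus had delivered Cas9 with a pair of guide RNAs to rearrange Eml4 and Alk in lung cells, and all had been given 4.5 nmol of QZ1-(PEG2K) by tail vein 2 h before the lungs were taken. QZ1-(PEG2K) is a fluorogenic probe that becomes fluorescent when proteases cut its linker, and the comparison asks how cells with high probe signal differ in RNA from cells of such lungs with low signal. Live cells without CD45 and CD11b were sorted by QZ1 signal against EpCAM, at least 100000 cells per population. Libraries from healthy lungs were not analysed here, so both populations carry the tumor model and the probe, each is a mixture of epithelial and stromal cells, and no source used here says which libraries came from the same or from separate mice. P values therefore measure the spread between these libraries.

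MHC class I molecules sit on nearly all nucleated cells and show peptides from the cytosol to CD8+ T cells. Each consists of a heavy chain (in C57BL/6 mice the classical ones are encoded by H2-K1 and H2-D1) and the light chain beta-2-microglobulin (B2m), and the peptides are pumped into the endoplasmic reticulum by the Tap1 and Tap2 transporter. MHC class II molecules show peptides from endosomes to CD4+ T cells. They are pairs of an alpha chain and a beta chain. H2-Aa and H2-Ab1 encode the alpha and beta chains of I-A, and H2-Eb1 encodes the beta chain of I-E. The pairs are guided by the invariant chain Cd74 and loaded with the help of H2-DMa, and transcription of their genes depends on the coactivator Ciita. Class II genes are best known from dendritic cells, macrophages and B cells, but mouse alveolar type 2 cells and some lung endothelial cells also express them.

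Of the 10 members, 7 lie within the MHC region of chromosome 17, between position 33996012, where H2-K1 begins, and position 35267497, where H2-D1 ends (GRCm38, the assembly of mm10 that the labels name). B2m lies outside it, at chr2:122147687-122153082. Promoters of 5 members are shown, from 250 bases before to 50 after a start site, because the results compare class II chains, class I heavy chains and B2m. Sequences are from RefSeq on GRCm38.p6, 5′ to 3′ on the gene's strand, with matches to searched motifs in capitals. The motifs, each searched on both strands, were the Y box CTGATTGG and its core ATTGG, the letters GAAA, any 2 bases and GAAA (an interferon-stimulated response element, ISRE), the NF-kB letters GGGGATTCC and the X box. The X box was searched as CCNAG directly followed by NNACNGNTG, where N is any base. The core lies within every Y box match.
H2-Aa, chr17:34287774-34288073, minus strand: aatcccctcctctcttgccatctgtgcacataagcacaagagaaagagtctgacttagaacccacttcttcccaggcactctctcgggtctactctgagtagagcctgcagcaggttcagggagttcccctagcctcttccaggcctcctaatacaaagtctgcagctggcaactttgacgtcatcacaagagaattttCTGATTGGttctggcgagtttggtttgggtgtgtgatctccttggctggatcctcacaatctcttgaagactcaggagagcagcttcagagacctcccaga
H2-Eb1, chr17:34305617-34305916, plus strand: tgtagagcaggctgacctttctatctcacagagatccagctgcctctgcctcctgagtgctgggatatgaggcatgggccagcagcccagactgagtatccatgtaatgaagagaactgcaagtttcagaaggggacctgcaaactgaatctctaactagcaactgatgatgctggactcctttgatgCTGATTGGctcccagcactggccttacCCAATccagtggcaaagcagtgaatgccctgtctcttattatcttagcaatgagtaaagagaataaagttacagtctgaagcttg
H2-K1, chr17:34000284-34000583, minus strand: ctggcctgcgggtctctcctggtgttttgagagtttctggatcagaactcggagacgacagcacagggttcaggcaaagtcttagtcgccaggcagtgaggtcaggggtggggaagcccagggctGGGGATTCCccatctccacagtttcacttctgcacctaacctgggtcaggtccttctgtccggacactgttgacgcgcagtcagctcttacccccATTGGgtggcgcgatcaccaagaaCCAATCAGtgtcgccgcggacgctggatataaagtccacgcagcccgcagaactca
H2-D1, chr17:35262844-35263143, plus strand: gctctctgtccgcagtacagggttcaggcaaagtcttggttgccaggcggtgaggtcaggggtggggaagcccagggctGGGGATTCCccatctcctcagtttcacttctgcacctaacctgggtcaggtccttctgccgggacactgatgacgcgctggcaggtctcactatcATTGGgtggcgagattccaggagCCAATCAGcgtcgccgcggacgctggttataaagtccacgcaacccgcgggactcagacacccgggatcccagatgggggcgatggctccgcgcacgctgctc
B2m, chr2:122147437-122147736, plus strand: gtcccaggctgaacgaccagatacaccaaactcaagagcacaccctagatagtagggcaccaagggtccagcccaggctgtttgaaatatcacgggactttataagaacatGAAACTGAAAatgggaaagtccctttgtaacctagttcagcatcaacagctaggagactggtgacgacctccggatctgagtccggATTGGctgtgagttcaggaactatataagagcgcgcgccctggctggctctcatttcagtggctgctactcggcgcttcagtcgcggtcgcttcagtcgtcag

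The class II promoters of H2-Aa and H2-Eb1 both held a Y box, starting at position -51 and -62 from the start site, a motif present in 4.10% of 32851 RefSeq promoters of this length. The class I promoters of H2-K1 and H2-D1 held the Y box letters on the reverse strand and the NF-kB letters, which 0.250% of promoters hold, and shared an identical run of 47 bases around the latter. B2m held neither of these but had the ISRE letters at position -139 (3.44% of promoters) and the Y box core at -53 (37.4%). The X box, present in 0.320% of promoters, was matched at position -98 in the Tap1 window. Only exact matches to the letters of each motif were sought, so near matches were not marked. For the X box an example is actagcaactgatg in the H2-Eb1 window. For the ISRE an example is tttcacttct in the H2-K1 and H2-D1 windows, read on the reverse strand. A lack of marked letters therefore does not show that a motif is absent. A match describes the letters of the window and is not a shown site of binding.

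Between 18380918 and 26847938 reads were counted per library. Mitochondrial genes and ribosomal RNA took 43.7 to 65.6% of them in QZ1-hi and 34.0 to 53.2% in QZ1-lo (p = 0.114 by a two-sided exact permutation test). Levels are given as CPM, counts per 1000000 counts of a library scaled by the TMM method, and log2 fold changes are QZ1-hi over QZ1-lo with the standard error (SE) of edgeR's quasi-likelihood test on 15583 genes. A gene was called at an adjusted p under 0.05, which 9.88% of the genes tested met with a higher and 8.21% with a lower level in QZ1-hi. Markers of several cell types set the populations apart. All 8 endothelial markers were called higher and all 7 tested markers of an airway epithelial list were called lower in QZ1-hi. That list also holds genes of epithelial cells in general, among them Epcam and Cdh1, which the paper uses for alveolar cells too. Summed endothelial markers were 10.1-fold and pericyte and fibroblast markers 9.77-fold higher in QZ1-hi, whereas summed airway epithelial markers were at 0.266 and alveolar type 1 markers at 0.597 of their QZ1-lo level. The libraries of the populations did not overlap in any of these 4 sums. For each, p was 0.0286 by a two-sided exact permutation test, as small as 8 libraries permit (adjusted p = 0.0715 over 10 marker lists). Of the 5 alveolar type 1 markers, 4 were called lower and 1, against the direction of the sum, was called higher. Markers of alveolar type 2 cells summed to 6460 to 10984 CPM in QZ1-hi and 5088 to 7405 CPM in QZ1-lo, a 1.38-fold higher mean with overlap (p = 0.0571, adjusted p = 0.0952 by the same exact permutation test), and 1 of 8, the surfactant gene Sftpc, was called higher. Their part in the class II levels was not tested. In bulk RNA, fewer cells of a type and less RNA per cell cannot be told apart.

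All 10 members were detected in every library, with 382 to 35421 counts, and all passed the filter on low counts. None was called by edgeR. Their log2 fold changes ran from -0.18 for Tap1 to 0.38 for B2m with a median of 0.20, against a median of 0.02 over all genes tested. The median size of the log2 fold change, regardless of sign, was 0.22 for the members and 0.24 for the 7946 genes with a mean of at least 10 CPM, as all members have. Among these 7946 genes, 34.0% had a larger log2 fold change in either direction than any member. The 95% intervals of the members ran at their lowest to 0.726-fold (Tap1) and at their highest to 1.59-fold (B2m), so with TMM scaling a 2-fold difference in either direction lay outside the interval of each. With scaling by total counts only, the intervals of Tap1 (0.448-fold to 0.923-fold) and H2-K1 (0.468-fold to 0.973-fold) reached past a 2-fold lower level. At an unadjusted p under 0.05, 3 members were higher in QZ1-hi (B2m, H2-Aa and H2-Eb1), where 15.4% of all genes tested were. DESeq2 and limma each called 1 member, B2m, as higher, where they called 11.6% and 10.9% of genes higher. The QZ1-hi libraries lay above all QZ1-lo libraries in CPM for 3 members, B2m, H2-Eb1 and Cd74, as for 11.9% of genes, and below them for none, as for 10.7%.

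**Figure D1:**
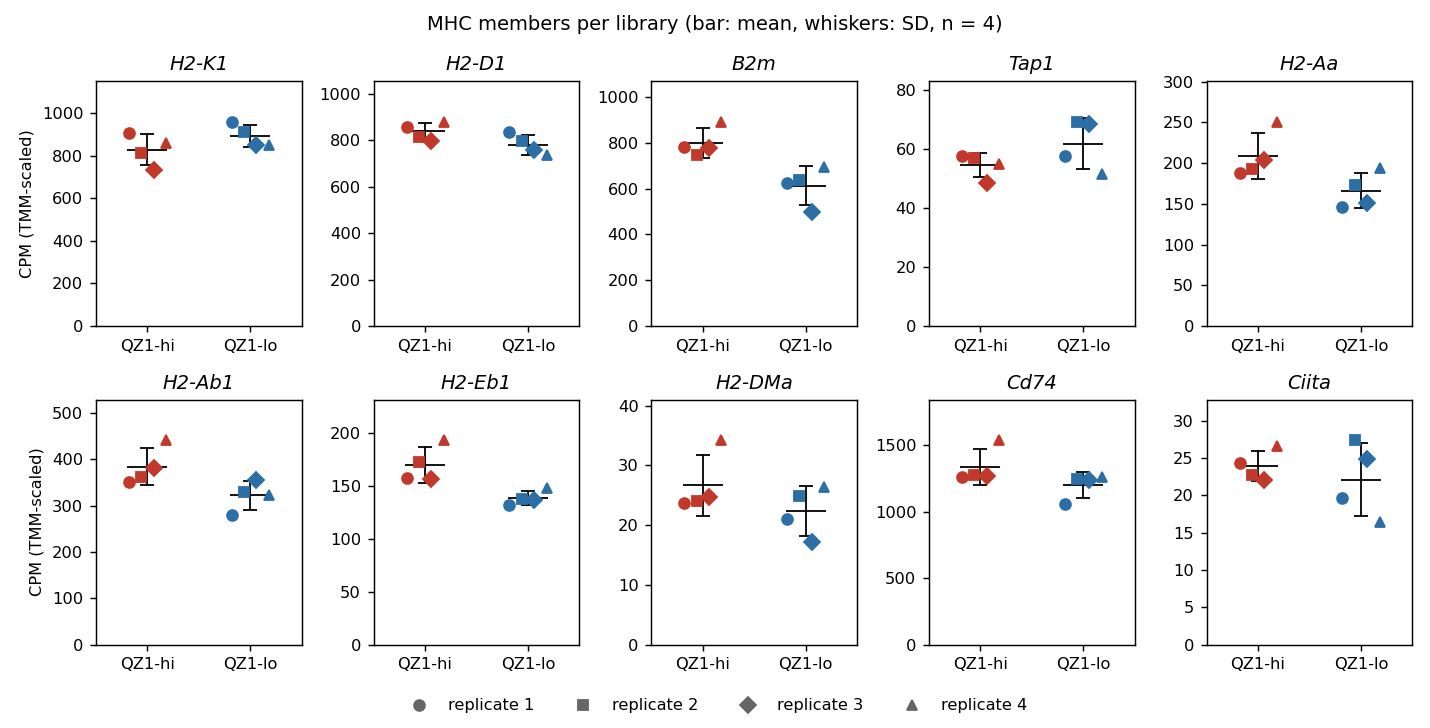
CPM (TMM-scaled, linear axes from 0) of the 10 members in each of the 4 QZ1-hi (red) and 4 QZ1-lo (blue) libraries, with symbols for replicates and black bars for the mean ± SD (n = 4). The populations are apart without overlap for B2m, H2-Eb1 and Cd74, and QZ1-hi replicate 4 is the highest QZ1-hi library in every panel but those of H2-K1 and Tap1.

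The signs of these differences depended on the scaling. With TMM scaling 8 members were above 0 and 2 below, but when libraries were scaled by their total counts only, the median over all genes tested fell to -0.44 and all 10 members were below 0. Relative to that median the members kept nearly the same places, with B2m at 0.36, H2-Aa at 0.30, H2-Eb1 at 0.26, H2-K1 at -0.13 and Tap1 at -0.19. Directions given below are therefore relative to the bulk of genes.

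H2-K1 and H2-D1 encode the classical class I heavy chains. H2-K1 was at 907, 814, 733 and 858 CPM in QZ1-hi replicates 1 to 4 and at 958, 910, 851 and 848 CPM in QZ1-lo replicates 1 to 4. The ranges overlapped, and the log2 fold change was -0.11 (adjusted p = 0.613 by edgeR, SE 0.12). H2-D1 was at 860, 817, 798 and 880 CPM in QZ1-hi and at 835, 795, 758 and 738 CPM in QZ1-lo. Its ranges overlapped as well, with a log2 fold change of 0.10 (adjusted p = 0.602 by edgeR, SE 0.11), and its spread over all 8 libraries, 1.19-fold from lowest to highest, was the narrowest of the members.

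The ratio of H2-K1 to H2-D1 within a library does not depend on scaling. It was 1.06, 0.996, 0.919 and 0.975 in QZ1-hi and 1.15, 1.14, 1.12 and 1.15 in QZ1-lo. Every QZ1-hi library was below every QZ1-lo library, and the ratio was at 0.863 of its QZ1-lo value, a log2 difference of -0.21 (p = 0.0286 by a two-sided exact permutation test, adjusted p = 0.0858 over the 3 ratios planned). This p is the smallest that 8 libraries permit, so this ratio alone could not pass after adjustment over 3 ratios. The adjusted value therefore does not decide whether the ratio differed. Of the 50-base stretches in their exons, 9.63% for H2-K1 and 12.8% for H2-D1 also occur in other genes, so that the counts of either can be split among class I paralogs, and the part of this in the ratio was not tested.

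B2m, the light chain shared by all class I molecules, was the member with the highest log2 fold change. It was at 782, 747, 775 and 891 CPM in QZ1-hi and at 625, 636, 496 and 695 CPM in QZ1-lo. The lowest QZ1-hi library was above the highest QZ1-lo library. The log2 fold change was 0.38 with an SE of 0.13 and adjusted p = 0.0710 by edgeR, 0.0340 by DESeq2 and 0.0366 by limma, so the call depended on the test. No 50-base stretch of B2m occurs in another gene. Set against the sum of the heavy chains H2-K1 and H2-D1 in the same library, a ratio chosen after the values were seen, B2m stood at 0.443, 0.458, 0.506 and 0.513 in QZ1-hi and at 0.349, 0.373, 0.309 and 0.438 in QZ1-lo, without overlap.

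Tap1, a subunit of the peptide transporter, was at 57.6, 56.8, 48.5 and 54.9 CPM in QZ1-hi and at 57.7, 69.1, 68.5 and 51.4 CPM in QZ1-lo. The ranges overlapped through QZ1-lo replicate 4, and the log2 fold change was -0.18 (adjusted p = 0.409 by edgeR, SE 0.13). Its partner Tap2 was at -0.03 (SE 0.14) on this scale. Of the exonic bases of Tap1, 3.87% overlap Psmb9 on the opposite strand, and the strand setting of the counting is not given in the sources used here.

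All 6 class II members had log2 fold changes above 0 with TMM scaling, with a median of 0.25, and none was called. H2-Aa, the alpha chain of I-A, was at 188, 192, 204 and 251 CPM in QZ1-hi and at 147, 173, 151 and 194 CPM in QZ1-lo. Only QZ1-lo replicate 4 reached into the QZ1-hi range, and the log2 fold change was 0.33 (adjusted p = 0.134 by edgeR, SE 0.14). H2-Ab1, its beta chain, was at 352, 362, 382 and 441 CPM in QZ1-hi and at 281, 329, 355 and 324 CPM in QZ1-lo. Here QZ1-lo replicate 3 overlapped the lowest QZ1-hi library, and the log2 fold change was 0.25 (adjusted p = 0.199 by edgeR, SE 0.12). H2-Eb1, the beta chain of I-E, is transcribed in C57BL/6 mice although their I-E alpha chain gene is defective. It was at 158, 172, 156 and 193 CPM in QZ1-hi and at 132, 137, 136 and 148 CPM in QZ1-lo. The populations did not overlap, with a log2 fold change of 0.30 (adjusted p = 0.0955 by edgeR, SE 0.11).

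Cd74, the invariant chain that occupies the peptide groove of new class II molecules, had the highest CPM of the members. It was at 1264, 1280, 1270 and 1538 CPM in QZ1-hi and at 1056, 1249, 1243 and 1259 CPM in QZ1-lo. The populations did not overlap, but 3 QZ1-lo libraries lay just below 3 QZ1-hi libraries, and the log2 fold change was 0.16 (adjusted p = 0.469 by edgeR, SE 0.12). H2-DMa, a chain of the peptide exchange factor, was at 23.6, 24.0045, 24.7 and 34.2 CPM in QZ1-hi and at 21.02, 24.9, 17.2 and 26.4 CPM in QZ1-lo. Apart from QZ1-hi replicate 4 the libraries overlapped, and the log2 fold change was 0.25 (adjusted p = 0.406 by edgeR, SE 0.18), which became 0.13 without QZ1-hi replicate 4 and 0.14 without QZ1-lo replicate 3. Of its exonic bases, 10.4% overlap Brd2 on the opposite strand.

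Ciita, the coactivator on which class II transcription depends, was at 24.3, 22.8, 22.1 and 26.6 CPM in QZ1-hi and at 19.7, 27.4, 24.9 and 16.5 CPM in QZ1-lo. The QZ1-lo libraries spanned the whole QZ1-hi range, and the log2 fold change of 0.11 (adjusted p = 0.731 by edgeR, SE 0.17) went to -0.0019 without QZ1-lo replicate 4, so no direction is given for Ciita. The cofactor Rfx5, which binds the X box, was at 12.8, 16.5, 7.05 and 12.9 CPM in QZ1-hi and at 19.3, 18.5, 21.2 and 20.4 CPM in QZ1-lo. All QZ1-lo libraries were above all QZ1-hi libraries, with a log2 fold change of -0.69 (adjusted p = 0.0576 by edgeR, SE 0.23).

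**Figure D2:**
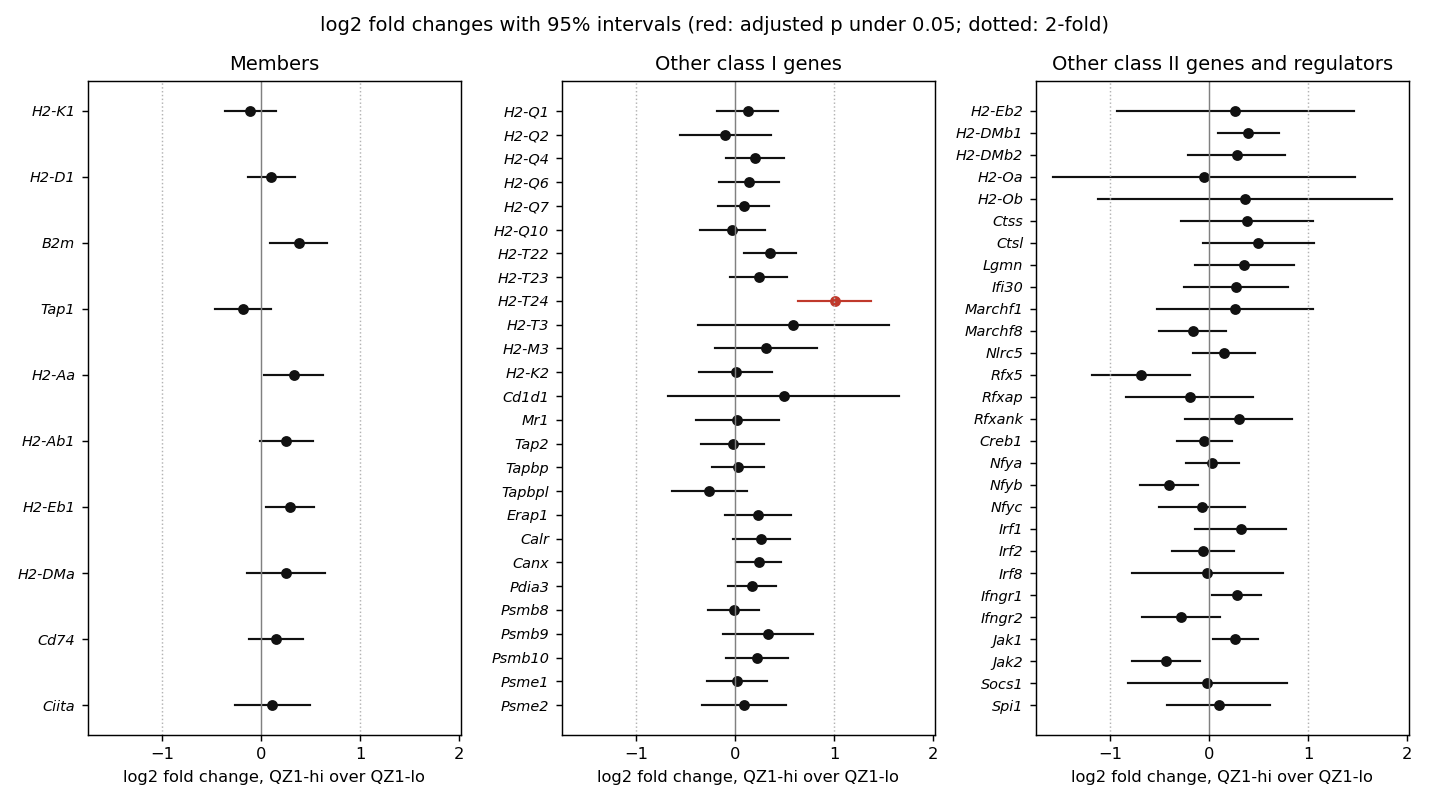
log2 fold changes (QZ1-hi over QZ1-lo, horizontal axes) with 95% intervals from edgeR for the 10 members and for other genes of the pathway, 1 row per gene, dotted lines at 2-fold. With TMM scaling all 10 member intervals lie between the dotted lines, and H2-T24, in red, is the single gene called.

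Compared per kilobase of annotated exon, the members spanned a wide range of levels. The means in QZ1-hi were 929 CPM per kb for B2m, 797 for Cd74, 325 for H2-D1, 282 for H2-K1, 150 for H2-Ab1, 87.3 for H2-Eb1, 55.0 for H2-Aa, 9.94 for Tap1, 7.73 for H2-DMa and 2.51 for Ciita. In QZ1-lo the order began with Cd74 at 716 and B2m at 713 CPM per kb, followed by H2-K1 at 304 and H2-D1 at 303, and was otherwise the same. Over all 8 libraries the ranges of B2m (577 to 1036 CPM per kb) and Cd74 (629 to 916) overlapped, as did those of H2-D1 and H2-K1 and those of Tap1 and H2-DMa, while the other neighbors in the order were apart. Among 14741 genes with an annotated length, B2m ranked 13 in QZ1-hi and 16 in QZ1-lo, Cd74 16 and 15, and H2-Ab1 69 and 96. Cd74 and the class II chain H2-Ab1 were thus among the most abundant transcripts of both populations, although cells with surface CD45 or CD11b had been gated out, whereas Ciita ranked 7653 and 7796.

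**Figure D3:**
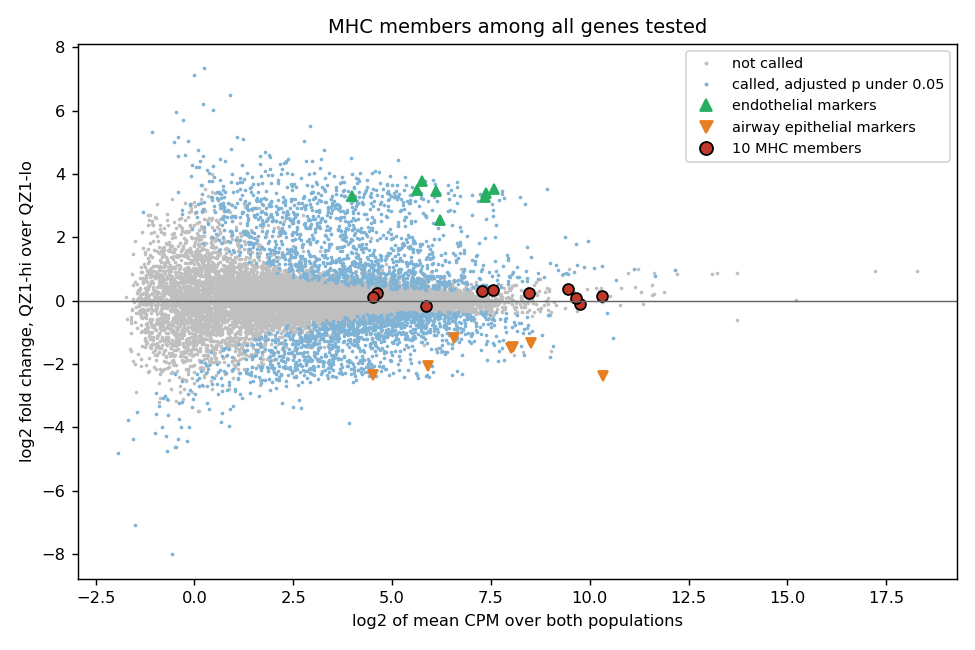
log2 fold change (vertical axis) against the log2 of mean CPM over both populations (horizontal axis) for the 15583 genes tested, with called genes in blue, endothelial markers as green triangles, airway epithelial markers as orange triangles and the 10 members as red circles. The members lie between -0.18 and 0.38, near the zero line. Endothelial markers lie from 2.54 to 3.79 and markers of the airway epithelial list, which includes general epithelial genes, from -2.38 to -1.17.

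Besides the members, 55 genes of the pathway were examined, chosen by function: 14 other class I molecules, 12 genes of peptide supply and loading, 11 genes of class II molecules and processing and 18 regulators. All 55 were tested, 1 was called higher and none lower. Their median log2 fold change was 0.14, with 37 above 0 and 18 below. At an unadjusted p under 0.05, 6 were higher and 3 lower, where 13.5% of all genes tested were lower. DESeq2 called 4, H2-T24 and H2-T22 as higher and Rfx5 and Nfyb as lower, and limma called these and, as lower, the kinase gene Jak2, where DESeq2 and limma called 10.3% and 8.27% of genes lower.

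H2-T24, a nonclassical class I heavy chain gene, was the gene called. It was at 32.6, 30.0, 38.0 and 32.8 CPM in QZ1-hi and at 17.1, 13.0, 21.3 and 14.98 CPM in QZ1-lo. All QZ1-hi libraries were above all QZ1-lo libraries, and the log2 fold change was 1.01 (adjusted p = 0.00185 by edgeR, SE 0.17). With scaling by total counts only, H2-T24 was not called, and its log2 fold change was 0.53 (adjusted p = 0.185 by edgeR) against the median of -0.44. Of its 50-base stretches, 3.17% occur in other genes. H2-T22, another nonclassical gene, had a log2 fold change of 0.36 (adjusted p = 0.0639 by edgeR, SE 0.12) without overlap, which became -0.10 with scaling by total counts only, and 34.5% of its stretches occur in other genes, mostly in H2-T10. The remaining 12 class I genes, from H2-Q1 to the lipid and metabolite presenters Cd1d1 and Mr1, were not called.

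Of the 12 genes that cut and load class I peptides, 9 had log2 fold changes above 0, with a median of 0.13. With TMM scaling, the summed CPM of the 12, 1677 to 1908 in QZ1-hi and 1560 to 1620 in QZ1-lo, did not overlap. Whether it overlaps with scaling by total counts only was not examined. Calr, Canx and Pdia3 made up most of this sum. Their means were 506, 429 and 375 CPM in QZ1-hi and 421, 363 and 332 CPM in QZ1-lo. The immunoproteasome subunit Psmb8 differed by -0.01 (SE 0.12) on the log2 scale and Psmb9 by 0.34 (SE 0.21). Tapbp, which bridges the transporter and the heavy chain, was at 0.03 (SE 0.12) and the chaperone Calr at 0.27 (SE 0.13), with none of these genes called and 1, the chaperone gene Canx, higher at an unadjusted p under 0.05. None of the 11 other class II genes was called. H2-DMb1, the partner of H2-DMa and the one of them at an unadjusted p under 0.05, was at 34.96, 34.6, 37.7 and 49.5 CPM in QZ1-hi and at 28.7, 28.2, 30.9 and 31.2 CPM in QZ1-lo. These did not overlap, with a log2 fold change of 0.40 (adjusted p = 0.0767 by edgeR, SE 0.14). The protease Ctss, which trims the invariant chain, ranged from 785 to 1827 CPM in QZ1-hi and from 563 to 1282 CPM in QZ1-lo, highest in replicate 4 of each population. The accessory chains H2-Oa and H2-Ob, known mainly from B cells, were at 0.173 to 3.61 CPM.

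Of the 18 regulators, none was called, 7 were above 0 and 11 below. The interferon pathway gene Irf1, at 0.32 (SE 0.21), and the class I coactivator Nlrc5, at 0.15 (SE 0.14), had adjusted p values of 0.360 and 0.550 (edgeR). Nfyb, a subunit of the factor that binds the Y box core, was at 19.4, 18.8, 19.9 and 16.2 CPM in QZ1-hi and at 24.7, 26.9, 22.5 and 24.5 CPM in QZ1-lo. It did not overlap either, with a log2 fold change of -0.41 (adjusted p = 0.0559 by edgeR, SE 0.13). At an unadjusted p under 0.05, 2 regulators were higher and 3 lower. Of 6 costimulatory and checkpoint ligands none was called, with 1 lower (Cd80) at an unadjusted p under 0.05, and Cd274, which encodes PD-L1, had the highest level, 41.98 to 82.8 CPM in QZ1-hi and 41.2 to 61.6 CPM in QZ1-lo.

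Markers of leukocytes, which the CD45 and CD11b gate was set to remove, were present in all libraries. Ptprc, which encodes CD45, was at 71.4, 116, 113 and 222 CPM in QZ1-hi and at 109, 138, 93.4 and 161 CPM in QZ1-lo. The sum of 6 leukocyte markers was 678 to 1341 CPM in QZ1-hi and 493 to 978 CPM in QZ1-lo, 1.18-fold higher in QZ1-hi with overlap (p = 0.629 by a two-sided exact permutation test). The sum of 13 macrophage and monocyte markers was 1.40-fold higher with overlap (p = 0.314 by the same exact permutation test). Most of it was Lyz2, which averaged 3600 CPM of a summed 4368 in QZ1-hi and 2534 CPM of 3114 in QZ1-lo. Of this list only Ly6c2 was called, as higher. Replicate 4 had the highest leukocyte sum and the highest macrophage and monocyte sum in both populations. The sum of 8 T and NK cell markers was low, at 5.30 to 9.88 CPM in QZ1-hi and 7.997 to 19.4 CPM in QZ1-lo, 0.509 of the QZ1-lo mean with overlap (p = 0.0571, exact permutation test), and Cd3g was called lower. The 6 B cell markers summed to 17.6 to 35.3 CPM, most of it from Cd22, which averaged 20.9 CPM in QZ1-hi and 17.8 CPM in QZ1-lo. Other B cell markers were near 0, with averages of 0.0149 CPM in QZ1-hi and 0.0373 CPM in QZ1-lo for Pax5 and of 0.590 and 0.626 CPM for Ms4a1. Of the 8 dendritic cell markers, Clec9a and Zbtb46 were called higher, Flt3 and Ccr7 lower, and Xcr1 averaged 0.702 and 0.437 CPM. The sum of the 8 was 1.30-fold higher in QZ1-hi with overlap (p = 0.4, exact permutation test). Most of it was Itgax, which averaged 149 CPM of a summed 192 in QZ1-hi and 113 CPM of 148 in QZ1-lo and was not called.

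Class II levels varied less than these markers. The summed CPM of the 6 class II members was 2010, 2053, 2060 and 2483 in QZ1-hi and 1656, 1941, 1927 and 1968 in QZ1-lo, a range of 1.50-fold over all libraries, against 2.72-fold for leukocyte and 3.14-fold for macrophage and monocyte markers. With TMM scaling, on which this rests, the populations did not overlap, with QZ1-hi replicate 4 the highest and QZ1-lo replicate 1 the lowest. The summed class I members ranged over 1.23-fold, from 2355 to 2683 CPM in QZ1-hi and from 2173 to 2476 CPM in QZ1-lo, and overlapped. The ratio of class II to leukocyte sums was 2.91, 2.61, 3.04 and 1.85 in QZ1-hi and 2.24, 2.60, 3.91 and 2.01 in QZ1-lo, with replicate 4 lowest in both. The ratio of class II to class I sums was 0.771 to 0.925 in QZ1-hi and 0.669 to 0.887 in QZ1-lo and overlapped. Without replicate 4 of both populations, a choice made after the data were seen, none of the 10 members was called and the log2 fold changes of the class II members ran from -0.08 to 0.29. How much of the class II signal came from leukocytes was not tested.

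**Figure D4:**
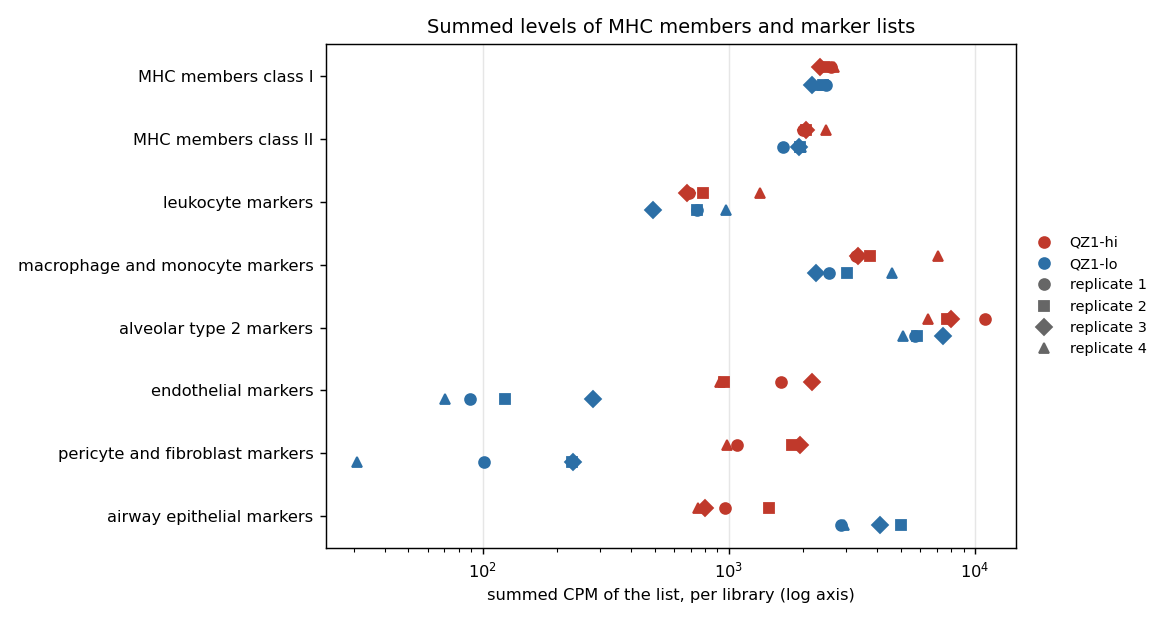
Summed CPM per library (log axis) of the class I and class II members and of 6 marker lists, with QZ1-hi in red, QZ1-lo in blue and symbols for replicates. With TMM scaling the class I and class II sums lie within 1.23-fold and 1.50-fold over all libraries, and the class II sums of the populations do not overlap. Sums of the endothelial, pericyte and fibroblast, and airway epithelial lists (the last with general epithelial genes) do not overlap either and lie farther apart. Leukocyte sums are highest in replicate 4.

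As a description of likeness over the 8 libraries, the genes outside the lists with the highest Pearson correlation of log2 CPM were found for each member. For B2m this was Rnf144b (r = 0.992), for H2-Aa Lyn (r = 0.990), a kinase of myeloid and B cells, and for H2-DMa Gigyf2 (r = 0.995). For Cd74 it was Plgrkt (r = 0.961) and for Ciita Mfsd8 (r = 0.957). With 8 libraries that share their population and depth and 15583 genes to choose from, such values describe these libraries and were not tested.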

How the data were processed

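The authors sequenced stranded total RNA libraries (SMARTer kit, NextSeq500) and used Rsubread to count reads per gene, and the deposited values are raw counts per Entrez Gene identifier without normalization. The submitters' processing notes name mm10 and DESeq2. The aligner, the annotation and the strand setting are not given in the sources used here. Depth was 18380918 to 26847938 counts per library, so that 3 counts correspond to 0.0894 to 0.179 CPM. Reads carry no molecular identifiers, and intervals cover the spread between libraries or counting error only.

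Symbols were matched by RefSeq (GRCm38.p6) for 25275 of 27179 identifiers and for all 148 listed genes. Counts were compared in R 4.3.3 with edgeR 4.0.16 (TMM, filterByExpr with a minimum count of 10 and a total of 15, quasi-likelihood test, no pairing) over 15583 genes, with Benjamini-Hochberg adjustment over all of them. The SE was derived from the F statistic of each gene. For single values, exact permutation tests (two-sided, 70 assignments) were used. The alternatives were DESeq2 1.42.0, limma 3.58.1 (voom with sample weights), other scalings and filters, an adjusted p under 0.01, removal of mitochondrial and ribosomal RNA genes, and leaving out each library. Leaving out replicate 4 of both populations was chosen after the data were seen. All 3 tests were first tried on simulated counts with known changes.

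The members, the pathway and marker lists and the tests were chosen with earlier results of these data known. The genes named were the members, the genes of these lists and, for each member, the genes outside them with the highest Pearson r (log2 CPM, prior count of 2). Brd2 and H2-T10, outside these lists, are named where they share sequence with a listed gene. Replicates were numbered in accession order. Promoters on chromosome 18, where Cd74 lies, were left out of the motif search and of the motif shares. The entries of H2-Ab1 and Ciita were not among the promoters used. Some listed genes are not reported here.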

Additional observations from a re-analysis of the deposited data

Results flagged for a closer look

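In groups of 4 libraries, a library was taken to stand apart where its gap to the nearest other, divided by the range of the group, exceeded 0.829, the 95% critical value of Dixon's test. Of 36 groups examined 7 had such a library, and chance gives about 1 in 20. QZ1-hi replicate 4 stood above the other QZ1-hi libraries for H2-DMa (34.2 against 23.6 to 24.7 CPM, quotient 0.896), for Cd74 (1538 against 1264 to 1280 CPM, quotient 0.942), for the summed class II members (2483 against 2010 to 2060 CPM, quotient 0.894), for the summed leukocyte markers (1341 against 678 to 787 CPM, quotient 0.837) and for the summed macrophage and monocyte markers (7082 against 3287 to 3757 CPM, quotient 0.876). These sums share members and libraries and are not independent. All these levels were TMM-scaled, and QZ1-hi replicate 4 had the lowest TMM factor of the 8 libraries, 0.660. It also had the highest share of mitochondrial genes and ribosomal RNA, 65.6%. The flags were not examined with scaling by total counts. QZ1-lo replicate 1 stood below the other QZ1-lo libraries for Cd74 (1056 against 1243 to 1259 CPM, quotient 0.918) and for the summed class II members (1656 against 1927 to 1968 CPM, quotient 0.869), of which Cd74 is the largest term.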

How the results depend on the processing

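No paired analysis was possible because neither the labels nor the methods say which libraries of the populations share a mouse, and replicate numbers are names only. No member was called by edgeR under any alternative, while DESeq2 and limma called 1 member each. Over 18 settings that exclude scaling by total counts, the adjusted p of B2m ran from 0.0340 to 0.178. Scaling by total counts only turned the log2 fold changes of H2-D1 (-0.36), B2m (-0.084), H2-Aa (-0.15), H2-Ab1 (-0.22), H2-Eb1 (-0.19), H2-DMa (-0.23), Cd74 (-0.32) and Ciita (-0.34), against a median of -0.44 over all genes. It also turned the fold of the leukocyte (0.824), B cell (0.814), dendritic cell (0.918) and macrophage and monocyte (0.975) marker sums, and gave 3 calls among the 55 other pathway genes, all lower (Rfx5, Nfyb and Jak2). Over all genes it gave 882 higher and 2509 lower calls, against 1540 and 1280. DESeq2 called 4 and limma 5 of the 55. With 1 library left out these calls numbered 1 to 2, with Rfx5 added without QZ1-hi replicate 2 and Jak2 added without QZ1-lo replicate 3. Ciita then ran from -0.0019 (without QZ1-lo replicate 4) to 0.23 and was at -0.076 without replicate 4 of both populations. The log2 difference of the H2-K1 to H2-D1 ratio ran from -0.24 to -0.18 with 1 library left out, with an exact permutation p of 0.0571 when any QZ1-lo library was left out, and was -0.20 without replicate 4 of both (p = 0.1, the smallest that 3 against 3 allow). That of the class II to leukocyte ratio, -0.02, ran from -0.15 to 0.17 with 1 library left out and was 0.0070 without replicate 4 of both and 0.23 with Ptprc alone as the leukocyte marker. That of the class II to class I ratio, 0.10, was 0.29 without Cd74 and B2m in the sums, 0.18 with mean log2 levels, and 0.0124 (without QZ1-lo replicate 1) to 0.15 with 1 library left out. At an adjusted p under 0.01, 1567 genes were called in place of 2820. The cause of these changes was not tested. With 4 libraries a population, the direction of a member whose 95% interval includes 0 could not be resolved. With TMM scaling the intervals of B2m, H2-Aa and H2-Eb1 excluded 0, without adjustment over genes, and those of the other members did not.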
